A study of Rattus norvegicus with 2 samples.

Results

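The potassium channel genes measured here are the rat genes whose RefSeq symbol begins with Kcn, the family of pore-forming and auxiliary subunits, without Kcnj13 and Kcne2. They were found by matching the transcript accession of each non-control probe to its RefSeq symbol, which gave 127 probes for 89 genes, among 16581 named genes on the array. Of these 89 genes, 81 were well above background on both arrays (116 probes) and are called measured below. The tissue was the NTS (nucleus of the solitary tract), a brainstem relay for cardiovascular and other visceral afferents. It was taken at 9 weeks of age from SHR (spontaneously hypertensive rats) of both sexes, reaching 1.0 mm in front of the calamus scriptorius and 0.5 mm behind it. Each sex was 1 array of total RNA pooled from 5 rats, 100 ng from each, with no treatment beyond the strain itself, and all animals of both groups were SHR, so no normotensive strain is part of the comparison. With 1 array per sex there is no replicate and no test. Every value below compares 2 pools, and the variation between rats is unknown.

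Potassium channels set the resting potential of neurons and end their action potentials. Voltage-gated (Kv) subunits open on depolarisation, inward rectifiers and tandem-pore leak channels hold the resting potential, and calcium-activated and sodium-activated channels shape the pauses between spikes. In the NTS such currents set how relay neurons answer baroreceptor input, and in glia they carry potassium away from active neurons.

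A scaled signal is a probe's intensity after each array's 75th percentile was set to 100, and a gene with several probes is given as their mean on the log2 scale. Differences are female minus male on the log2 scale, and folds divide the higher signal by the lower. The error given with a difference is an SD from the scanner program's own error model, and its median was 0.20 over the members. It covers neither rats, pools nor labelling. Signals of different genes come from different probes and are not compared with each other.

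Well above background were 80.1% of the male array's non-control spots and 82.3% of those of the female array, and 0 were saturated. The probe of the Y-linked gene Eif2s3y read 22.4 for the males, and for the females it stayed below the limit for a signal well above background. The probes of Ddx3y read 24.3 and 10.2 (well above background on both arrays) and 6.94 for the males only, and Uty was not well above background on either array. Of the markers listed for the NTS and dorsal medulla, 8 of 11 had a named probe and all 8 were measured. They included Th and Dbh, of catecholamine synthesis, and Gcg, which marks preproglucagon neurons. Differences in this list ran from -0.53, for Gcg (43.9 and 30.3 on the male and female arrays), to 0.16. On the female array 4 of the 8 were higher.

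Most potassium channel genes were alike on the arrays. Of the 81 measured genes, 51 (63.0%) lay within 1.1-fold, against 69.7% of all 13428 measured genes. The median difference was 0.03, against 0.02 over all genes, and the SD over genes was 0.23 for both. On the female array 48 of the 81 were higher by any amount (59.3%, against 55.5% of all genes). That count moved with the scaling, as did the share of all genes. It was 37 with loess (45.7%, against 49.8%), 39 with quantile normalization (48.1%, against 50.2%), 40 with centring on the array median (49.4%, against 44.8%) and 65 with centring on spike-in controls (80.2%, against 83.2%). On the female side 4 members passed 1.5-fold, Kcnq1, Kcns1, Kcnj4 and Kcns2, which is 4.94% of the 81 against 1.5% of all genes. On the male side 0 members reached 1.5-fold, against 0.797% of all genes, and in either direction it was 2.29% of all genes. No member reached 2-fold in either direction, where all genes had 0.402% on the female and 0.149% on the male side. Past 1.2-fold were 11 members on the female side (13.6%, against 7.31% of all genes) and 4 on the male side (4.94%, against 4.48%).

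The members past these limits were mostly dim. Of the 81 measured members, 32 fell in the dimmest 25% of genes, and 3 of the 4 past 1.5-fold were among them. There 9.38% of the members and 6.97% of all genes were past 1.5-fold. In the brighter 75% it was 1 of 49 members (2.04%), against 0.735% of all genes. Set against genes of like signal, in 20 bins, the differences of 78 of the 81 members lay inside the middle 95%. Outside it were Kcnq1 above (1.23% of the members, against 2.53% of all genes) and Kcng4 and Kcnk5 below (2.47%, against 2.53%). The values of Kcns1, Kcns2 and Kcnj4 were inside the band of their signal range. These shares are near the background, so the number of members outside the band does not set the family apart.

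**Figure D1:**
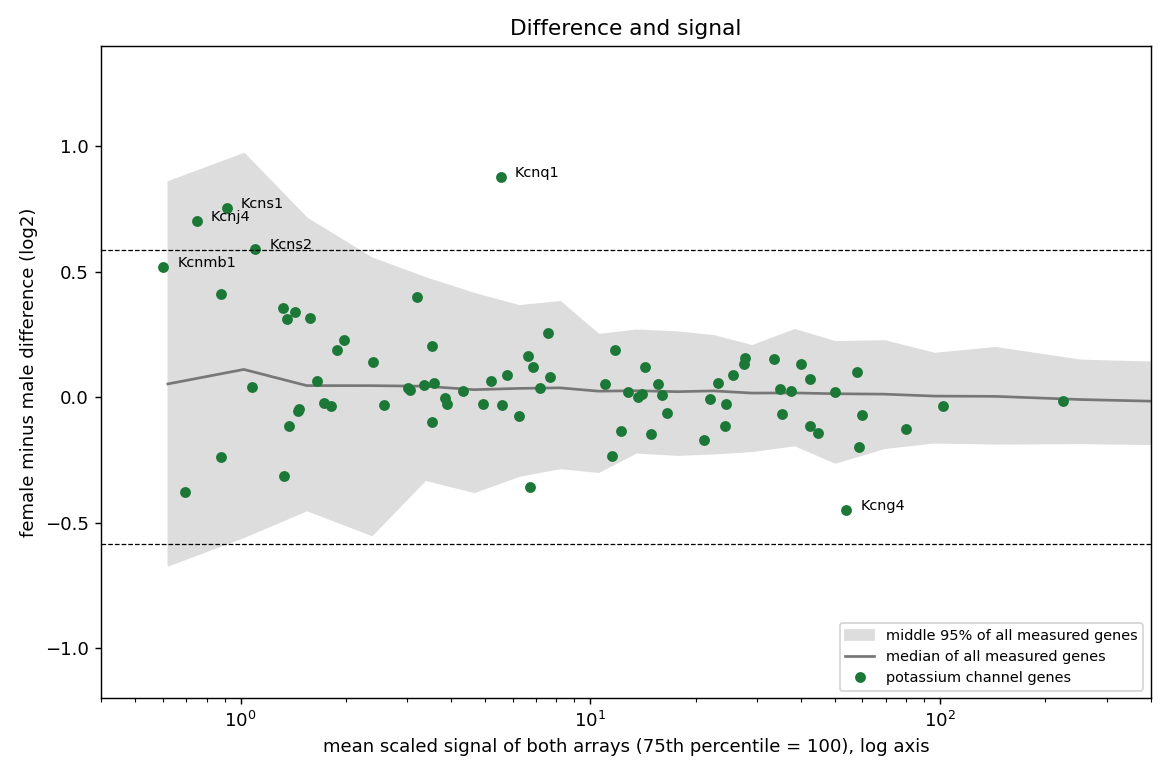
Difference between the arrays (female minus male, log2) against the mean scaled signal (log axis) for the 81 measured potassium channel genes (points), with the median and the middle 95% of all measured genes of like signal (line and grey band) and the 1.5-fold limits (dashed lines). Kcnq1 lies above the band, Kcng4 and Kcnk5 below it, and the other members past 1.5-fold sit at the dim end inside it.

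Among the KCNQ genes, Kcnq1 differed and the genes of the neuronal M-current did so less. Kcnq1 encodes a subunit of epithelia and heart that pairs with small Kcne subunits. It read 4.09 and 7.51 on the male and female arrays, a 1.84-fold difference in favour of the females (0.88 ± 0.21, 1 probe). It was the largest difference of any measured member. Kcnq3 and Kcnq5 encode subunits of the M-current, which muscarinic receptors close. Kcnq3 read 22.4 and 19.95 on the male and female arrays (-0.17 ± 0.15), and both of its probes were lower on the female array. Kcnq5 was dim, at 1.17 and 1.49, and differed by 1.28-fold in the other direction (0.36 ± 0.24, 1 probe). That value lay inside the band of genes of like signal. These genes thus lay on both sides of 0, each by less than 1.5-fold.

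Markers of the choroid plexus, an epithelium from which Kcnq1 is known, were higher on the same array as Kcnq1. All 12 measured genes of the fixed choroid plexus list were past 1.5-fold in that direction, with a median of 2.33. Their summed scaled signal was 809 and 9836 on the male and female arrays, of which Ttr gave 617 and 9325. Tmem72 was the 1 gene of that list with a probe that was not well above background on both arrays. The potassium channel genes left out of the family here lie on the same side: Kcnj13 read 0.839 and 19.7 on the male and female arrays, and Kcne2, a known partner of Kcnq1, read 4.74 and 11.7. The part of this tissue in the Kcnq1 value was not tested. In RNA pooled from tissue, more cells of a type and more RNA per cell cannot be told apart.

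**Figure D2:**
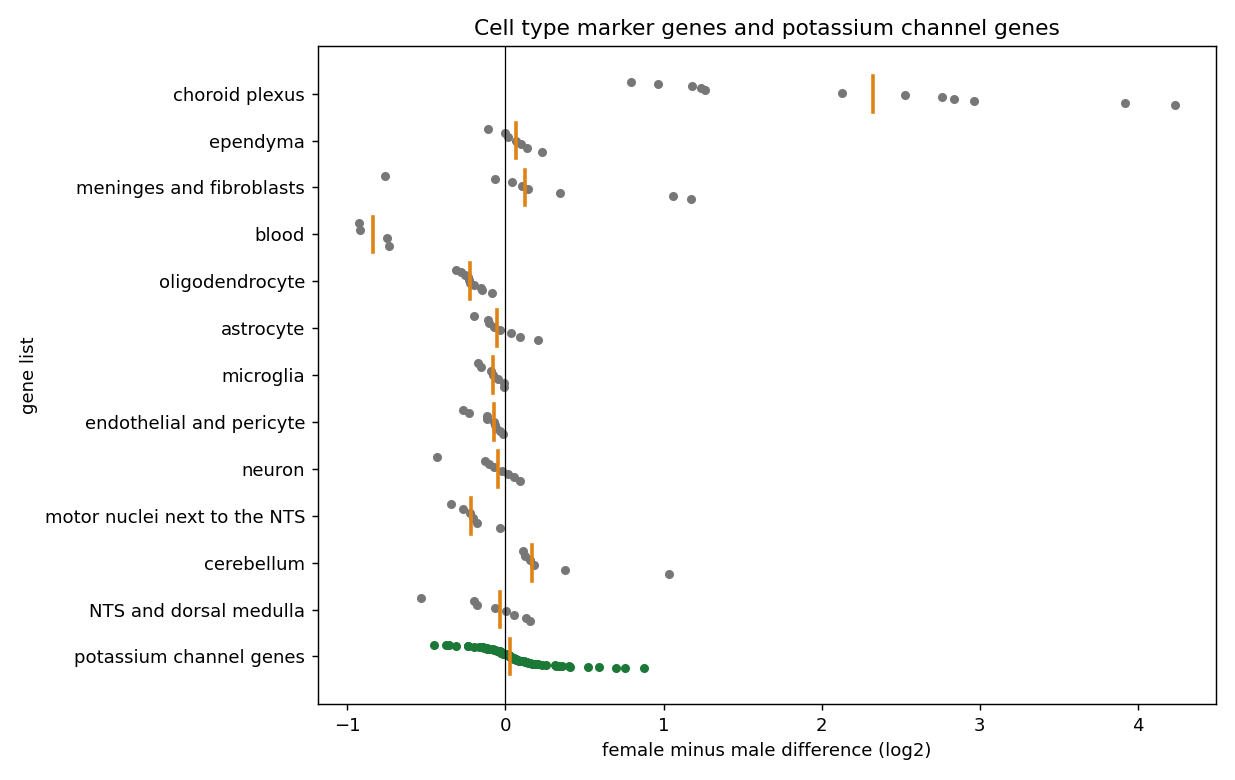
Difference between the arrays (female minus male, log2) of each measured gene (points) in the cell type marker lists and in the potassium channel family (bottom row), with each list's median (orange bars). The choroid plexus genes lie between 0.80 and 4.23, the blood genes between -0.93 and -0.73, and the potassium channel genes between -0.45 and 0.88.

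Of the Kv1 pore genes, which form axonal and juxtaparanodal channels, 7 of 8 were measured. Of these, 0 passed 1.5-fold, against 2.29% of all genes in either direction. Kcna1 read 63.0 and 54.8 on the male and female arrays (-0.20 ± 0.14). The SD of that difference over its 2 spots was 0.02. The mean of the probes of Kcna2 was 25.3 and 23.4 (-0.11 ± 0.14). Kcna5 stood at -0.15 and Kcna6 differed by 1.02-fold. Kcna4, which makes a fast-inactivating current, was at 0.19 and Kcna3 at 0.14. Kcna7, a subunit known from muscle, was dim, at 1.27 and 1.603 (0.34 ± 0.24). Kcna10 was not well above background on either array. The class therefore held differences from -0.20 to 0.34, with no shared direction. Its partner subunits Kcnab1, Kcnab2 and Kcnab3 differed by 1.05-fold, 1.00-fold and 1.02-fold. Kcnrg, a cytosolic regulator of Kv assembly, differed by 1.04-fold.

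The Kv2, Kv3 and Kv4 pore genes were nearly equal on the arrays. Kcnb2, a delayed rectifier, was at 0.16 as the mean of probes at 0.37 and -0.04. The 4 Kcnc genes, whose channels allow fast firing, all differed by 1.09-fold or less. Kcnc1 read 22.8 and 23.7, and Kcnc2 read 13.7 and 14.9. Kcnc4 differed by 1.02-fold. Of the 3 Kcnd genes, which carry the transient A-current that delays firing in NTS neurons, Kcnd3 differed the most, by 1.06-fold. Kcnd2 read 15.4 and 16.0 and Kcnd3 read 5.62 and 5.97, each as the mean of 3 probes, and Kcnd1 differed by 1.01-fold. The probes of Kcnd2 were at -0.07, -0.01 and, for the dimmest, 0.25. Those of Kcnd3 were at 0.02, 0.30 and, for the dimmest, -0.06.

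KChIP proteins bind Kv4 channels and raise their surface number. Kcnip4 read 44.3 and 40.9 on the male and female arrays (-0.11 ± 0.20). Kcnip3, which is also a calcium-sensing transcriptional repressor, read 3.28 and 3.78 (0.20 ± 0.15). The other 2, Kcnip1 and Kcnip2, were at 0.07 and 0.15. For Kcnip2 the probe with 10 spots gave 287 and 292 (0.03, SD between spots 0.02) and the probe with 1 spot gave 0.28. The largest of the 4 differences was 1.15-fold, for Kcnip3.

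The silent Kv genes (Kcnf, Kcng, Kcns and Kcnv) make no channel alone and modify Kv2 channels. They held the widest spread of the Kv genes, from -0.45 to 0.75 over 10 measured genes. Kcng4 read 62.9 and 46.0 on the male and female arrays, 1.37-fold higher on the male array (-0.45 ± 0.20, 1 probe). It was the lowest difference of all measured members and lay below the middle 95% of genes of its signal, whose lower limit was -0.26. Kcns1, known from sensory neurons, read 0.703 and 1.18 (0.75 ± 0.28), which is 1.69-fold in favour of the female array. Kcns2 read 0.897 and 1.35 (0.59 ± 0.27), 1.51-fold higher there. Both are dim: the lowest signal that counted as well above background was 0.365 and 0.344 on the male and female arrays. Of the rest, Kcng1, Kcng3 and Kcnf1 stood at -0.13, -0.10 and -0.11, and Kcnv1, at 1.42 and 1.77, at 0.32. Kcns3, Kcng2 and Kcnv2 differed by 1.05-fold, 1.05-fold and 1.01-fold.

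**Figure D3:**
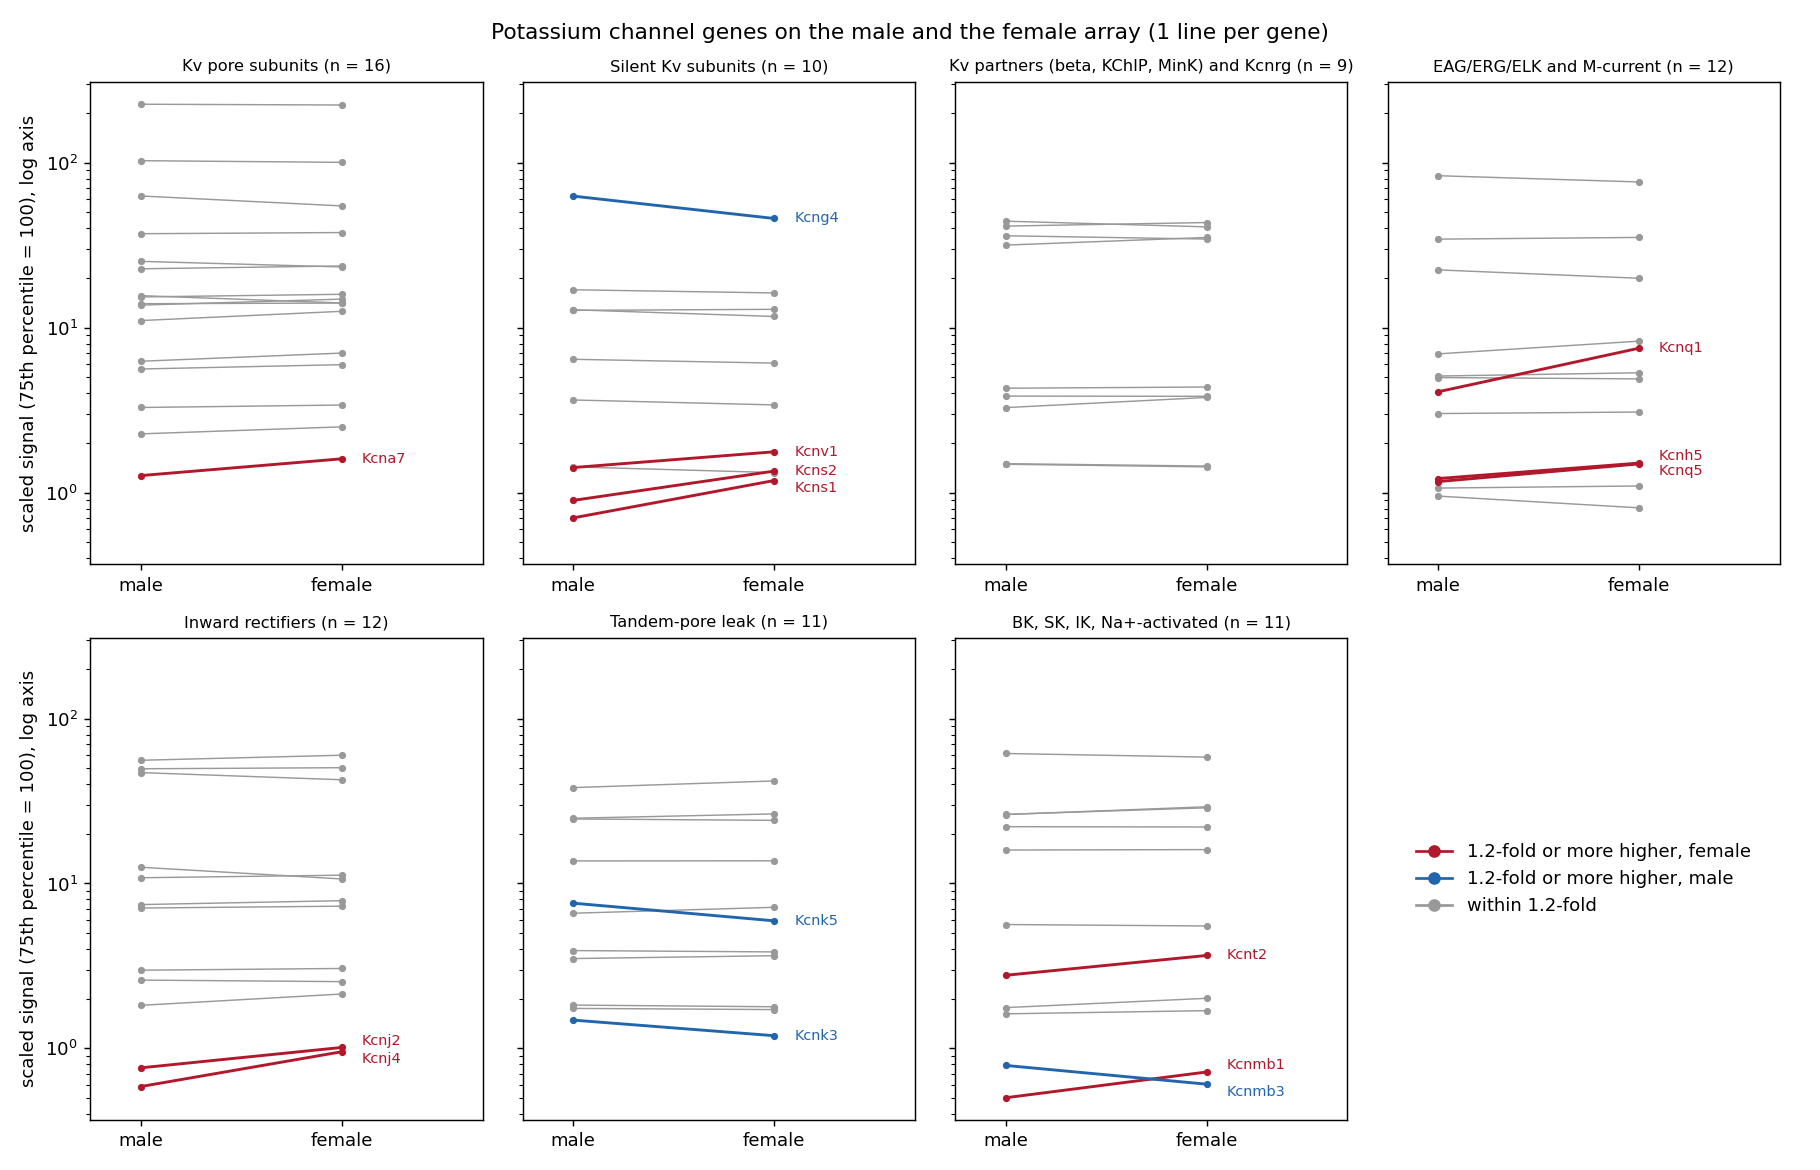
Scaled signal (log axis; 75th percentile of each array = 100) of each measured potassium channel gene on each of the arrays (male left, female right), 1 line per gene, in panels by role; genes that differ by 1.2-fold or more are coloured and named. Most lines are flat; Kcnq1 rises from 4.09 to 7.51 and Kcng4 falls from 62.9 to 46.0.

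Inward rectifier genes had 12 of 14 measured; Kcnj1 and Kcnj15 were not well above background on either array. The subunits of the channels opened by G proteins, through which opioid, GABA-B and muscarinic receptors silence neurons, were close on the arrays: Kcnj3 read 47.0 and 42.6 (-0.14 ± 0.20), Kcnj6 read 2.98 and 3.05, a 1.02-fold difference, and Kcnj9 stood at 0.05. Kcnj5 was at 0.23 as the mean of a probe at 0.01, from 8.27 and 8.34, and a dim probe at 0.44, from 0.402 and 0.547. In glia, Kcnj10 and Kcnj16 form the channel that buffers potassium. Kcnj10 read 2.60 and 2.54 and Kcnj16 read 49.6 and 50.4, differing by 1.02-fold and 1.01-fold. Kcnj11, the pore of the neuronal ATP-sensitive channel, read 7.10 and 7.28, a 1.03-fold difference, and its regulatory subunit gene Abcc8 differed by 1.04-fold. Kcnj8, the pore of the vascular ATP-sensitive channel, read 12.5 and 10.7 (-0.24 ± 0.20), and its partner Abcc9 stood at -0.12. The array with less Kcnj8 also had slightly less of the endothelial and pericyte list, which includes Abcc9. All 9 measured genes of the list were lower on the female array (median -0.07, summed signal 150.2 against 137.8). With spike-in centring 4 of the 9 were lower there, 5 were higher, and the list's median was 0.03. The part of these cells in the Kcnj8 value was not tested. Among the strong rectifiers, Kcnj4 was dim. It read 0.587 and 0.954 on the male and female arrays, a 1.63-fold difference (0.70 ± 0.32). Kcnj2, also dim, read 0.762 and 1.01 (0.41 ± 0.31). Kcnj12 and Kcnj14 were at 0.08 and 0.10.

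Tandem-pore channels carry the leak current, and several sense pH, stretch or lipids. Of 13 genes 11 were measured, and 0 passed 1.5-fold, against 2.29% of all genes in either direction. Kcnk5, an alkaline-activated channel known from brainstem chemoreceptor neurons, read 7.60 and 5.94 on the male and female arrays, 1.28-fold higher on the male array (-0.36 ± 0.21, 1 probe). It was the lowest of the class and just below the band of genes of like signal, whose limit was -0.31. The acid-sensitive Kcnk3 read 1.48 and 1.19 as the mean of 2 probes that lay on opposite sides, at 0.06 and -0.68, the widest gap between probes of any member, and with the brightest probe alone its sign turned. The related Kcnk9 read 1.75 and 1.72, a 1.02-fold difference. Kcnk2, a stretch-sensitive channel, read 24.9 and 26.4 (0.09 ± 0.15), and Kcnk1 read 6.60 and 7.17 with its 3 probes between 0.09 and 0.14. Kcnk16 had the highest difference of the class, 0.13 ± 0.20, from 38.2 and 41.9. Of Kcnk4, Kcnk6, Kcnk10, Kcnk12 and Kcnk13, the last differed the most, by 1.04-fold. Kcnk15 and Kcnk18 were not well above background on either array.

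Of the annotated upstream windows, those of 4 members are shown, to let their base make-up be read beside their values. They are the 250 bases before the RefSeq start on assembly GRCr8, 5' to 3', with each CG pair in capitals: Kcns1 and Kcnj4 were higher on the female array, Kcng4 and Kcnk5 on the male array.
Kcns1 chr3:173262347-173262596 (- strand): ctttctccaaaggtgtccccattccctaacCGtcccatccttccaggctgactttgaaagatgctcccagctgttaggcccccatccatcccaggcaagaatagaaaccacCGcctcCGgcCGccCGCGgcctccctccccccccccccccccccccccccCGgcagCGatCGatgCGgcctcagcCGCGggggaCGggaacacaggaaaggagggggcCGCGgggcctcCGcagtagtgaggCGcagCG
Kcnj4 chr7:112954548-112954797 (- strand): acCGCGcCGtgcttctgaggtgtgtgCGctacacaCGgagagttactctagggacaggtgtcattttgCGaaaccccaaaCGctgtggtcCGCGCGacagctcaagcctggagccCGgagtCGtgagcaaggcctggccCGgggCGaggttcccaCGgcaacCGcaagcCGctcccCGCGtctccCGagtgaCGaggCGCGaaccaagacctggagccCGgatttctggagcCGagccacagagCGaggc
Kcng4 chr19:64597889-64598138 (- strand): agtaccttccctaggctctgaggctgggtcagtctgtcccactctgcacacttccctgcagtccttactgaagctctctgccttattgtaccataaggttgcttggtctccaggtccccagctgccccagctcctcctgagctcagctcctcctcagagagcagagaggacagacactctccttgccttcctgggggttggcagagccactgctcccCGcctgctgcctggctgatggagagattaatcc
Kcnk5 chr15:4171375-4171624 (+ strand): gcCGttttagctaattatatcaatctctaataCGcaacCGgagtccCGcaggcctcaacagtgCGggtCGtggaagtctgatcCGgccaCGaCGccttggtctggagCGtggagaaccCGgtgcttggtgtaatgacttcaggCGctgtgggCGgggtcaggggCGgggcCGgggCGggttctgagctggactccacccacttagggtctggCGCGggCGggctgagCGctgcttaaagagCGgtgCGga
The windows hold 18 CG pairs for Kcns1, 26 for Kcnj4, 1 for Kcng4 and 22 for Kcnk5. Among these 4, CG-rich windows thus occur on both sides, but Kcns1 and Kcnj4 were dim and inside the band of genes of like signal. Kcnq1, the member above that band, has no window used here. Over the 67 members with a window in the table, the median was 12 CG pairs and 59.6% G or C, against 8 pairs and 54.0% over 21851 protein-coding genes. The GC box GGGCGG, read on both strands, was in 33 of the 67 windows (49.3%, against 38.9% of coding genes). In the window of Kcnk5 it begins 101, 89, 78 and 35 bases before the start, and in that of Kcns1 its reverse complement, CCGCCC, begins at 130. The TATA letters TATAAA were in 1 of the 67 (1.49%, against 12.1%). AGGTCA, the core letters of an oestrogen receptor half-site, were in 4 of 67 (5.97%, against 12.5%), and AGAACA, those of an androgen receptor half-site, in 11 of 67 (16.4%, against 15.3%). None of these 3 was found in the 4 windows shown, on either strand. Such letters are a description of the window and not a measured site.

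Calcium-activated channel genes were close on the arrays where they were bright. Kcnma1, the pore of the large-conductance BK channel, read 16.0 and 16.1 as the mean of probes at 0.14 and -0.12. Kcnmb4, its neuronal beta subunit, read 61.4 and 58.4 and differed by 1.05-fold, and Kcnmb2 stood at 0.16. The remaining beta subunits were dim and lay on opposite sides. Kcnmb1, the smooth muscle form, read 0.502 and 0.719 on its measured probe (0.52 ± 0.35), and Kcnmb3 read 0.788 and 0.607 (-0.38 ± 0.34). The second probe of Kcnmb1 was well above background on the female array only, at 0.533. With no filter on dim probes Kcnmb1 stood at 0.91. The small-conductance genes, whose channels help make the afterhyperpolarisation, were nearly equal as gene means: Kcnn2 read 5.64 and 5.52 over 3 probes, Kcnn3 read 22.1 and 22.0, and Kcnn1 differed by 1.05-fold. For Kcnn2 the brightest probe was at -0.21 and the others at 0.08 and 0.04. Kcnn4, known from blood cells and microglia, read 1.77 and 2.01 on its measured probe (0.19 ± 0.23), while its second probe was well above background on the female array only. The sodium-activated Kcnt1 read 26.2 and 28.8 on the male and female arrays (0.13 ± 0.12), with its 3 probes between 0.07 and 0.20. Kcnt2 read 2.77 and 3.66, 1.32-fold higher on the female array (0.40 ± 0.21).

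**Figure D4:**
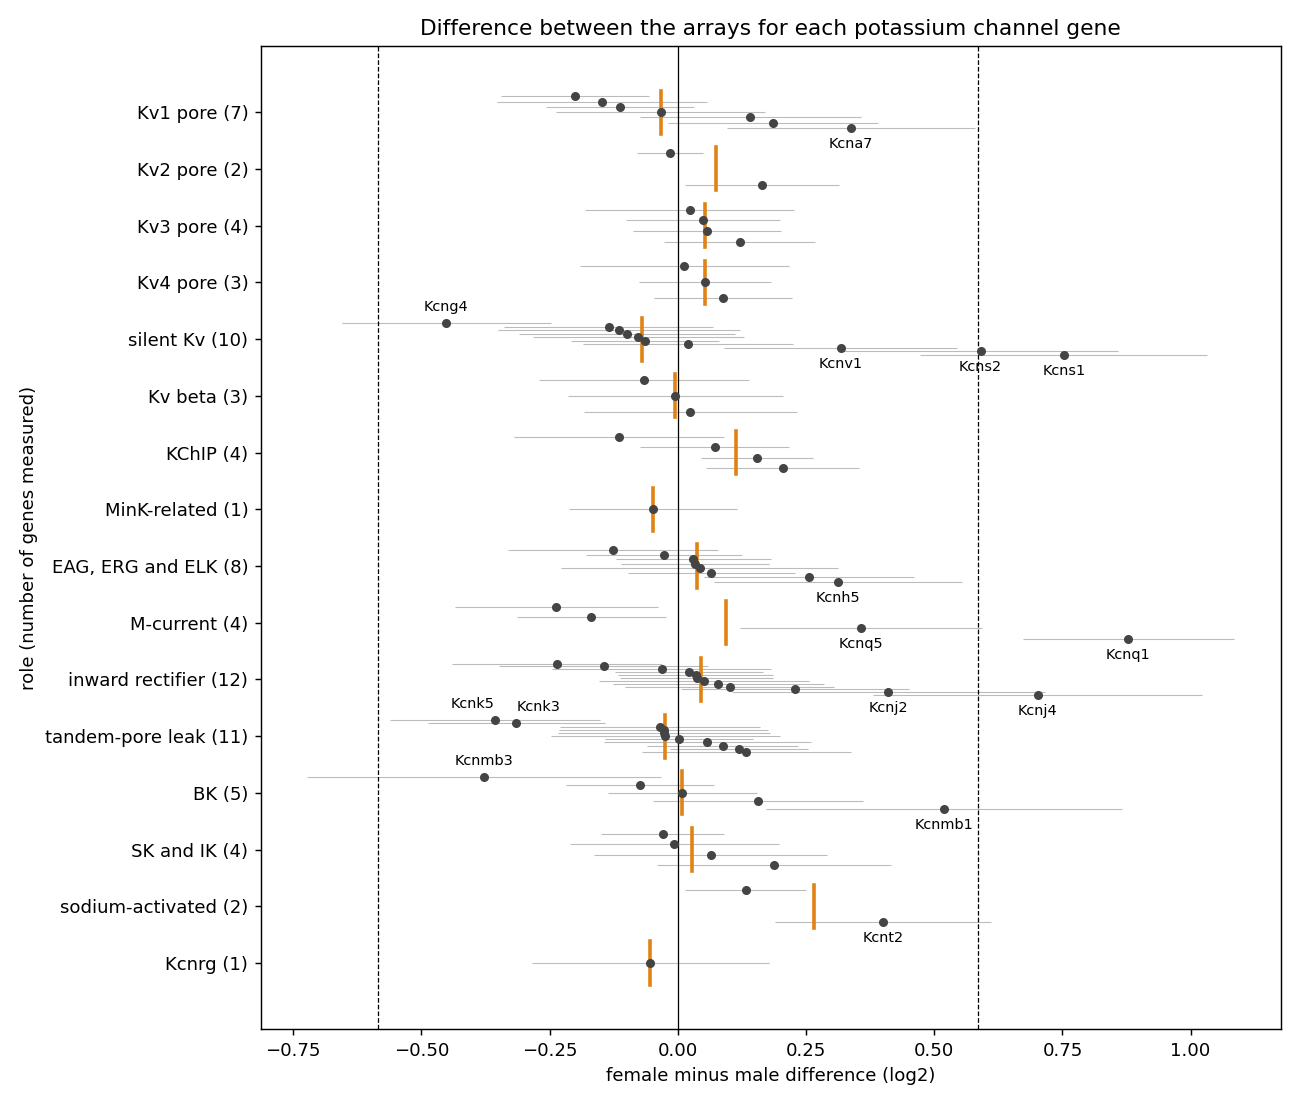
Difference between the arrays (female minus male, log2) of each measured potassium channel gene by role, with the scanner program's error-model SD (grey bars), the median of each role (orange bars) and the 1.5-fold limits (dashed lines). Most points lie near 0; 4 genes lie past the upper limit and none past the lower.

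The EAG, ERG and ELK genes had all 8 members measured, from -0.13 to 0.31. Kcnh2, the ERG channel that repolarises the heart's action potential, read 83.6 and 76.6 on the male and female arrays (-0.13 ± 0.20). Kcnh5 was dim, at 1.22 and 1.51 (0.31 ± 0.24), and Kcnh4 stood at 0.26. The others differed by 1.05-fold or less. Of the MinK-related genes only Kcne5 was measured, with its probes at 0.18 and -0.28 and a 1.03-fold difference between the arrays. Kcne4 was well above background on the female array only, at 0.377, and its bound was at least 1.03-fold, while Kcne1 and Kcne3 were not well above background on either array.

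Across the roles, medians were small and several changed side with the scaling. The median of 9 of the 16 roles changed sign under at least 1 of 5 other scalings, as did the differences of 30 of the 81 genes (37.0%, against 40.8% of all genes), all of them between -0.08 and 0.06. Centring on spike-in controls adds 0.10 to every gene and centring on the array median takes 0.03 from every gene, so that for these the turn of a value near 0 is set by the shift itself. Of the 30 members with several measured probes, 14 had all probes on the same side, against 1756 of the 3050 such genes in all. The median spread between the highest and lowest probe was 0.21 for these members, against 0.10 over those 3050 genes.

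**Figure D5:**
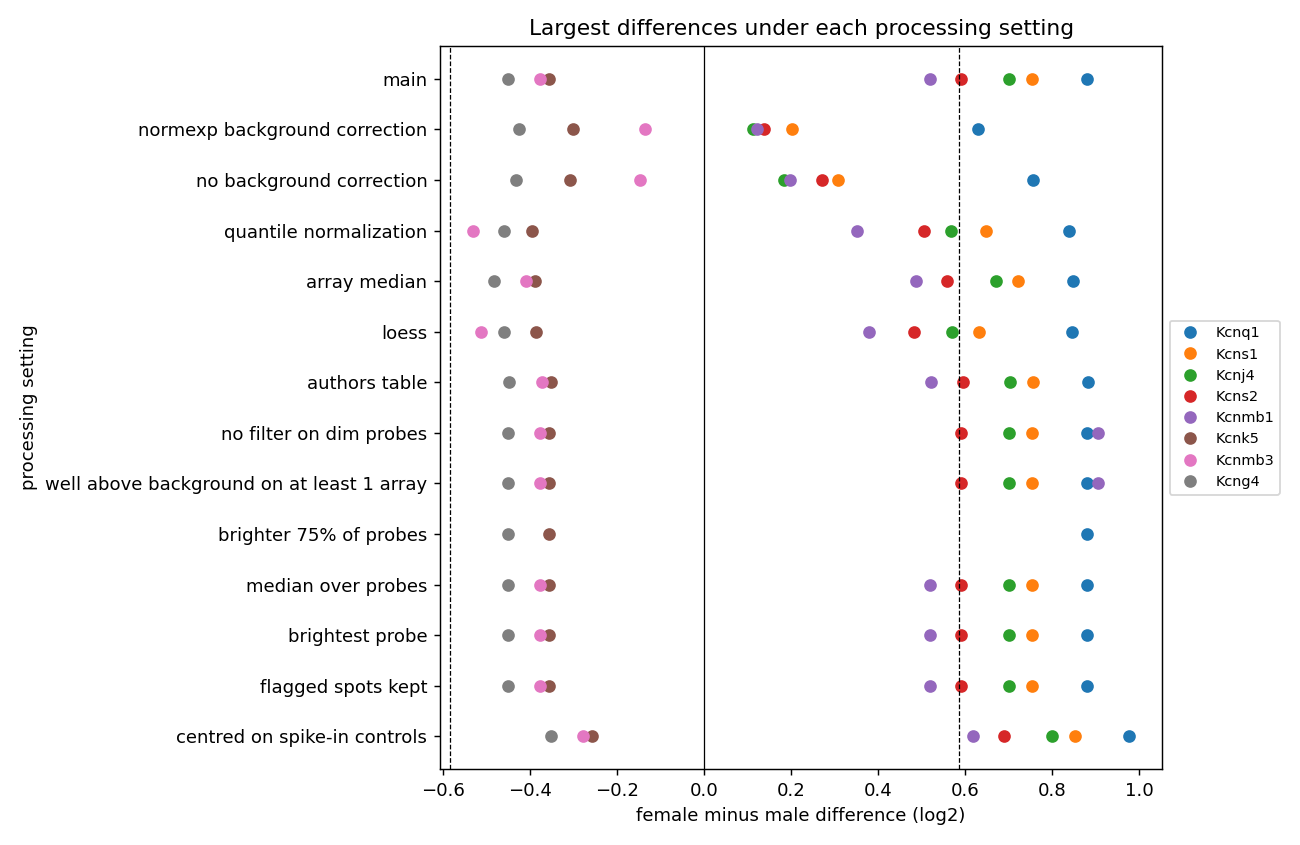
Difference (female minus male, log2) of 8 potassium channel genes with large differences (colours) under the main setting and 13 others, with the 1.5-fold limits (dashed lines). Kcnq1 lies between 0.63 and 0.98 throughout, while Kcns1, Kcnj4, Kcns2 and Kcnmb1 fall to between 0.11 and 0.20 with normexp.

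Of the 4 calls, 3 were lost with another background treatment. With normexp correction, which here also takes the spot median in place of the processed signal and adds an offset of 50, Kcnq1 stayed past 1.5-fold, at 0.63 (1.55-fold); of all genes, 0.276% were past 1.5-fold on the female side in that setting. Kcns1 was 0.20, Kcns2 0.14 and Kcnj4 0.11 with that correction. An added offset by itself shrinks the log2 difference of a dim probe more than that of a bright one. The fall of these 3 dim genes is thus in part set by the offset and is no check on them. Over all genes the SD fell too, from 0.23 to 0.14 with normexp. Kcnq1 was past 1.5-fold in all 13 other settings, Kcns1 in 10 of 12, Kcnj4 in 8 of 12 and Kcns2 in 7 of 12. On the male side, Kcng4 was between -0.48 and -0.35 and Kcnk5 between -0.39 and -0.26 over 13 settings. Each gene named here has 1 probe with 1 spot. Changing the dim-probe filter, the probe averaging or the flagged spots therefore could not move its value. The tallies count such settings too, so they are no measure of stability.

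Genes whose products work with these channels, from a list of 35, were also close on the arrays. Of these, 30 were measured, and the median was 0.01, with a range from -0.23 to 0.22. In either direction 0 passed 1.5-fold, against 2.29% of all genes. In a list of this size such a count does not set the partners apart. The Kv4 partners Dpp6 and Dpp10 each differed by 1.03-fold. Amigo1, the Kv2 partner, differed by 1.00-fold. Among regulators of G protein-gated channels, Rgs7bp stood at 0.22, and Rgs7, Gnb5 and Rgs4 differed by 1.05-fold or less. Lrrc26, a gamma subunit of the BK channel, was at -0.23, and the pacemaker gene Hcn2 at -0.22, and Hcn3 and Hcn4 differed by 1.07-fold or less. Lgi1, a secreted partner of Kv1 channels, was at 0.21.

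Markers of other cell types were compared in the same way. The measured genes of the oligodendrocyte list were all lower on the female array (10 of 10, median -0.23, summed signal 2287 against 1921). So were those of the neighbouring motor nuclei (6 of 6, median -0.22, 705.7 against 608.7). In both lists each gene differed by less than 1.5-fold. With centring on spike-in controls 9 of 10 and 5 of 6 were lower. The 4 measured blood genes were lower there too (median -0.84, 266 against 157). The cerebellar list was higher on the female array in 6 of 6 measured genes (median 0.16, 164 against 183), 1 of them past 1.5-fold, while its granule cell gene Gabra6 was not well above background on both arrays. The neuron, astrocyte, microglia and ependyma lists had 0 measured genes past 1.5-fold in either direction, against 2.29% of all genes. The 7 microglia genes were all lower on the female array (median -0.08), and 2 of them with spike-in centring. The meningeal list had 2 on the female and 1 on the male side. The part of these tissues in the potassium channel values was not tested.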

How the data were processed

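Total RNA of the NTS of 5 male and 5 female SHR was pooled by sex, and 100 ng of each pool was Cy3-labelled for a 1-colour Agilent array, per the labels' protocols. The deposited scanner files hold spot intensity on a linear scale, background-corrected by Feature Extraction, version 11.5.1.1 per the file headers and 9.1 per the submitters' processing notes. Both arrays share 1 scan time. The authors' deposited value table holds the same intensity divided by 1 constant per array (22.8 male, 23.4 female) for 48346 spots, each well above background on at least 1 array; the divisor is the 75th percentile over 100. The flags (other values of 0 or 1) mark background and outliers, per the file headers.

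Processed signals were divided by each array's 75th percentile over non-control spots, outlier spots (284 male, 363 female) dropped, log2 taken and spots averaged per probe. Of 45595 probes, 21109 were named through RefSeq accessions (GRCr8). The array design uses an older assembly, so that table served for names and neighbour order, and promoter windows are RefSeq's. Kcnq1 and Kcns2 are among the members with no window used here. Kcnk7, Kcnu1 and Kcnd2l1 were among the RefSeq Kcn genes not analysed here. Some members' own values are not reported here. A bound set the brighter signal against the higher of the dim probe's own and the lowest signal well above background.

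No test was made. Named were members past 1.5-fold, extremes of each role, a fixed list, and members with probes over 1 log2 unit apart; partner genes and marker lists were fixed too. Kcnip1, Kcnh4 and other unlisted members were named after their values were seen, as were the 1.2-fold limit, the comparison with genes of like signal and the promoter windows. Members and lists were chosen with earlier results of these data known. Normexp and uncorrected settings used the spot median, as the files hold no spot mean. The gene summary was tested on simulated arrays. Python 3.11.15 (numpy 2.4.6, pandas 2.3.3), R 4.3.3 and limma 3.58.1 were used.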

Additional observations from a re-analysis of the deposited data

How the results depend on the processing

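No paired analysis was possible because a single pool stands for each sex and nothing was tested, and no replicate could be left out. Alternatives were planned except centring on spike-in controls, which was chosen after seeing the data. The count of 4 genes past 1.5-fold on the female side became 1 without background correction (0.372% of all genes), with normexp (0.276%) and in the brighter 75% of probes (0.523%). It was 2 with quantile normalization (1.02%) and loess (1.04%), 7 of 89 with no filter on dim probes (6.84%) and 0 at 3-fold (0.164%). In the brighter probes 62 members were left. The setting without background correction leaves background in the signal, and normexp adds an offset. Either by itself shrinks the log2 differences of dim probes. The SD over all genes was 0.16 and 0.14 in these settings, against 0.23 in the main one. For the other settings the cause was not tested. With no filter 1 of 89 genes passed 1.5-fold on the male side (3.09% of all genes) and 1 passed 2-fold on the female side (3.35%), as did 1 of 82 with probes above background on at least 1 array (1.82%).

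The Kcns median, 0.59, was 0.27 without background correction, 0.14 with normexp and -0.077 in the brighter probes, where 1 gene was left. The Kcnt median, 0.27, was 0.17 with normexp, and Kcnv, 0.17, was 0.070 with normexp and 0.021 in the brighter probes. Kcnq, 0.09, was 0.35 there, over 2 genes. Kcnb, 0.07, was -0.030 in the brighter probes and with the brightest probe. With the brightest probe Kcne was -0.28, Kcnip 0.048 and Kcnm -0.073, and Kcne was 0.49 with probes above background on at least 1 array. Centring on spike-in controls raised the median of all members to 0.13, with all genes at 0.11, and gave medians of 0.080 for Kcna, 0.17 for Kcnb, 0.15 for Kcnc and Kcnd, -0.019 for Kcng, 0.14 for Kcnh and Kcnj, 0.21 for Kcnip, 0.075 for Kcnk, 0.11 for Kcnm, 0.36 for Kcnt and 0.27 for Kcnv. No other count moved by over 1.5 times, and no other median by more than the SD over repeated spots at its signal. Within that limit 22 of 219 values of the medians changed sign, over the family and 7 letter classes (Kcna, Kcne, Kcnf, Kcnh, Kcnm, Kcnn and Kcnr). None of the 4 genes past 1.5-fold changed direction. Precision is limited by 1 array per sex and, for the dim members, by signal near background.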

Other observations

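Several potassium channel genes are direct neighbours in the RefSeq gene order of rat assembly GRCr8, with no other protein-coding gene between them, and their differences (female minus male, log2) could be read side by side. Kcna5, Kcna1 and Kcna6 lie in a row and stood at -0.15, -0.20 and -0.03, where the sign of Kcna6 turned with centring on spike-in controls. Kcna3 and Kcna2 are neighbours on opposite sides, at 0.14 and -0.11. Kcnk16 and Kcnk5, at 0.13 and -0.36, differed the most in this reading and also lie on opposite sides. Kcnj2 was at 0.41 beside Kcnj16, which differed by 1.01-fold. Kcnj9 and Kcnj10 differed by 1.04-fold and 1.02-fold, and Kcnip1 and Kcnmb1 were at 0.07 and 0.52, where Kcnj2 and Kcnmb1 are dim. Of the other neighbours, Kcnj1 beside Kcnj5, Kcnj15 beside Kcnj6 and Kcna10 beside Kcna2 were not well above background on either array. This reading was chosen after the values were seen.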
